A study of Capra hircus with 27 samples.

Results

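Heart and lung of domestic goats (Capra hircus) were compared across 3 altitudes. Of 27 RNA-seq libraries in the series, the 9 labelled heart and the 9 labelled lung were taken, 18 in all, with 3 of each tissue at 600 m, 2000 m and 3000 m, and the remaining 9, from skeletal muscle, served only as a reference for where a gene was also expressed. The heart is a striated muscle pump built largely from cardiomyocytes, which devote much of their RNA to contractile proteins and to mitochondrial energy production. The lung, where oxygen enters the blood, is assembled from many cell types, among them alveolar and airway epithelium, endothelium, smooth muscle and resident immune cells. Both organs lie on the path of oxygen to the tissues, and the series asks how expression differs between goats that live at different altitudes.

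The goats were about 3 years old and untreated as far as the labels say. The 600 m goats came from Ya'an, the 2000 m goats from Zhaotong and the 3000 m goats from the A'ba Tibetan autonomous area, each an indigenous population of its own, so altitude and population cannot be told apart. The study describes its 600 m and 3000 m goats as unrelated adult females. No sequencing batch was given in the labels. Expression was deposited as log2(FPKM + 1), FPKM being fragments per kilobase of transcript and sequencing depth, so that levels of different genes are comparable per length. Of 22131 gene IDs, 0 matched the gene table used here, so no gene symbols were assigned. Genes are therefore given by ID, their functions are not stated, and the tissue labels were not checked against marker genes. Because whole tissue was sequenced, fewer cells of a type and less RNA per cell cannot be told apart in any difference below.

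Fewer genes were expressed in heart than in lung, and fewer of them accounted for most of its RNA. An FPKM above 0.5 was reached by 52.8% to 56.8% of the 22131 genes in the 9 heart libraries (median 54.9%) and by 60.5% to 63.1% in the 9 lung libraries (median 62.1%). The tissues did not overlap. The means were 55.0% (SD 1.47, n = 9) in heart and 62.1% (SD 0.853, n = 9) in lung, a difference of -7.10 percentage points (exact two-sided permutation test within altitudes, p = 0.00025, also after adjustment over the 3 breadth and concentration measures, and the smallest p that the 8000 arrangements allow). Heart was lower in all 9 pairs of heart and lung libraries with the same number at the same altitude (exact paired test, p = 0.00391, the smallest possible). The gap was -7.91 points at 600 m, -5.90 at 2000 m and -7.49 at 3000 m, and its change with altitude did not pass the test at this threshold (exact permutation of altitude over the 9 pairs, 280 partitions, p = 0.0929, adjusted p = 0.279 over the 3 measures). The gap widened to -9.35 points at a threshold of 5 FPKM. After median-ratio scaling the gap above 0.5 FPKM narrowed to -5.30 points (exact permutation test, p = 0.00025), with heart lower in all 9 pairs. The depth of heart libraries, estimated from the value of 1 read among low genes and relative to the geometric mean of the 18, was 0.817 to 0.986 against 0.976 to 1.29 in lung, and was lower in heart in all 9 pairs. The part of this depth gap in the difference in breadth was not tested.

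Whether the gap changed with altitude depended on the threshold. Among genes above 0 FPKM it was -7.18 points at 600 m, -4.54 at 2000 m and -6.30 at 3000 m (exact permutation test over pairs, p = 0.00714, adjusted p = 0.0214 over 6 thresholds). Above 0.1 FPKM it was -7.37, -5.02 and -6.72 points (exact permutation test, p = 0.025, adjusted p = 0.05), with p at most 0.0643 when 1 pair was left out (above 0.05 without pair 1 at 600 m or any pair at 2000 m). At 0.5, 1 and 5 FPKM the adjusted p was 0.133, 0.133 and 0.136 in the same exact test. Heart was lower in all 9 pairs at each of these 5 thresholds. The gap in relative depth, heart minus lung, was -0.223 at 600 m, -0.155 at 2000 m and -0.171 at 3000 m. Its own change with altitude gave p = 0.736 in the exact permutation test. The part of depth in the changes of breadth with altitude was not tested. Above 100 FPKM the shares were close when pooled, 3.68% in heart and 3.72% in lung, a difference of -0.0407 points (exact permutation test, p = 0.781). That gap had different signs by altitude, at -0.395 points at 600 m (heart lower in 3 of 3 pairs), -0.16 at 2000 m (2 of 3) and 0.432 at 3000 m (0 of 3). Its change with altitude gave p = 0.00357 in the exact permutation test, the smallest of 280 partitions (adjusted p = 0.0214, and p at most 0.0393 without any 1 pair). After median-ratio scaling the gap above 100 FPKM was 1.28, 0.959 and 1.60 points, heart being higher at all 3 altitudes (exact permutation test for a change, p = 0.0679).

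The 10 most abundant genes of each library held 23.6% to 35.4% of all FPKM in heart (median 27.5%) and 10.3% to 22.6% in lung (median 13.1%). The mean shares were 28.3% (SD 3.69, n = 9) and 13.7% (SD 3.47, n = 9), 14.7 points apart (exact permutation test, p = 0.00025). Reaching 50% of the FPKM took between 45 and 87 genes in heart (mean 71.3, SD 15.5, n = 9) and between 146 and 391 in lung (mean 277, SD 72.9, n = 9), a difference of -206 genes (exact permutation test, p = 0.00025). With the 10 leading genes of each library set aside, 189 genes in heart and 445 in lung were still needed. The concentration of heart RNA was therefore not limited to its 10 leading genes. The lowest count for lung, 146, belonged to replicate 3 at 3000 m, which was also the library with 22.6% of its FPKM in 10 genes, against 10.3% to 13.5% in the other 8 lung libraries.

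**Figure D1:**
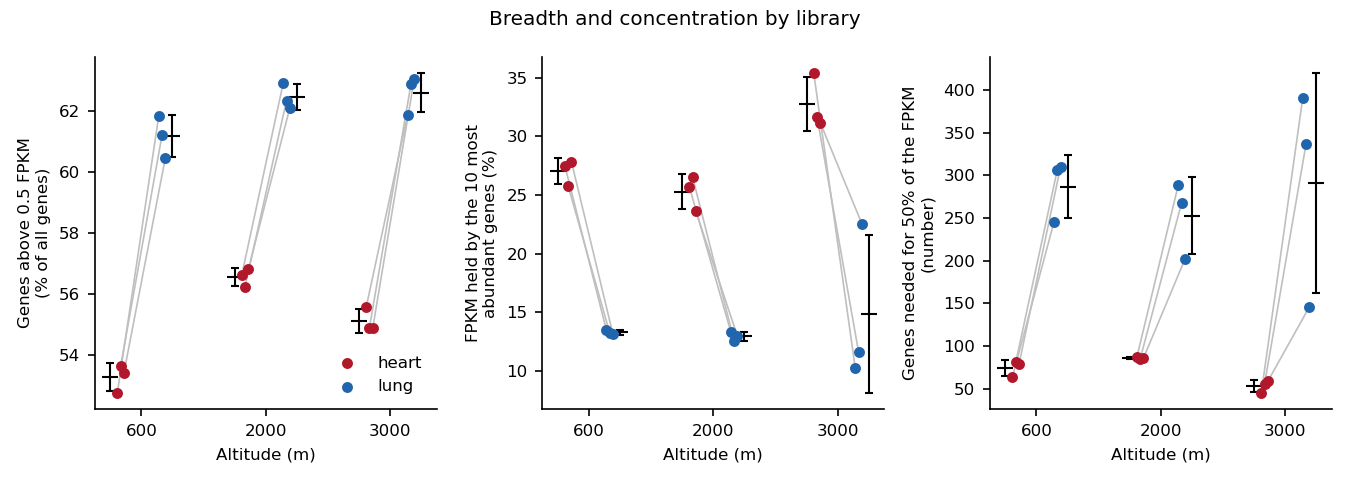
Breadth and concentration of the transcriptome in each heart and lung library by altitude in metres, as the share of 22131 genes above 0.5 FPKM (%), the share of FPKM in the 10 most abundant genes (%) and the number of genes needed to reach 50% of the FPKM. Points are libraries, grey lines join heart and lung libraries with the same number, and black bars give the mean and SD of 3 libraries; lung is higher in the left and right panels and heart in the middle panel in all 9 pairs, and 1 lung library at 3000 m lies at 22.6% in the middle panel.

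The same gene was the most abundant in all 9 heart libraries, with 6.20% to 11.4% of the FPKM, and held 1.43% to 4.16% in lung. Of the 10 leading genes, 6 were shared by all 9 heart libraries, 6 by all 9 lung libraries and 2 by all 18. Among the leading 100 these numbers were 63, 64 and 24. The 10 genes with the highest mean in heart held 4.40% to 7.35% of the FPKM of lung libraries. The 10 genes with the highest mean in lung held 10.2% to 20.2% in lung and 14.6% to 21.8% in heart, and 3 of these genes were also among the 10 of heart. In lung replicate 3 at 3000 m, 1 gene reached 60212 FPKM (9.41% of the library), against 164 to 11424 FPKM in the other lung libraries and 1.16 to 873 FPKM in heart. Without this gene in any library the top 10 share was 10.3% to 15.2% in lung and 23.6% to 35.4% in heart.

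Differences between the organs were then tested gene by gene, for the 13843 genes whose FPKM averaged above 0.5 in the 18 libraries. On the log2(FPKM + 1) scale, with altitude as a term, limma called 11545 genes at an adjusted p of at most 0.05, which is 83.4% of those tested. Of these, 2725 were higher in heart (19.7% of genes tested) and 8820 were higher in lung (63.7%). The 9 heart and the 9 lung libraries did not overlap at all for 1471 genes higher in heart (10.6%) and 4871 higher in lung (35.2%), every one of which was called. The sign was the same in all 9 pairs for 2176 of the heart calls and 7371 of the lung calls. The median difference over all genes tested was -0.61 on the log2 scale, with a median standard error of 0.12 for a single gene.

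This split between heart and lung followed the scaling of the libraries, while large differences did not. The FPKM of a library summed to 716661 to 904780 in heart and to 448581 to 639955 in lung. Scaling every library to a common sum shifted the median difference to -1.04 and gave 1849 genes higher in heart and 10484 higher in lung. Median-ratio scaling gave 4311 and 6568 (median -0.21), quantile normalization 5203 and 5438 (median -0.03), and centring each library on its median gene 5686 and 4777 (median 0.06). Heart therefore had between 15.0% and 54.3% of the calls, against 23.6% with the values as deposited. Under all 5 scalings, 1848 of the 2725 heart calls (67.8%) and 4509 of the 8820 lung calls (51.1%) were called in the same direction. At least 1 other scaling called 56 of the heart genes and 1213 of the lung genes in the opposite direction. For a difference of at least 1 on the log2 scale as deposited, 0 genes were called in the opposite direction. Of these larger differences, 1393 of 1398 heart genes and 4169 of 4513 lung genes were called in the same direction under all 5. At 3 or more on that scale all 345 heart genes and all 569 lung genes were. The medians of the 5 scalings ran only from -1.04 to 0.06, so genes chosen for differences this large could hardly lose their call.

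**Figure D2:**
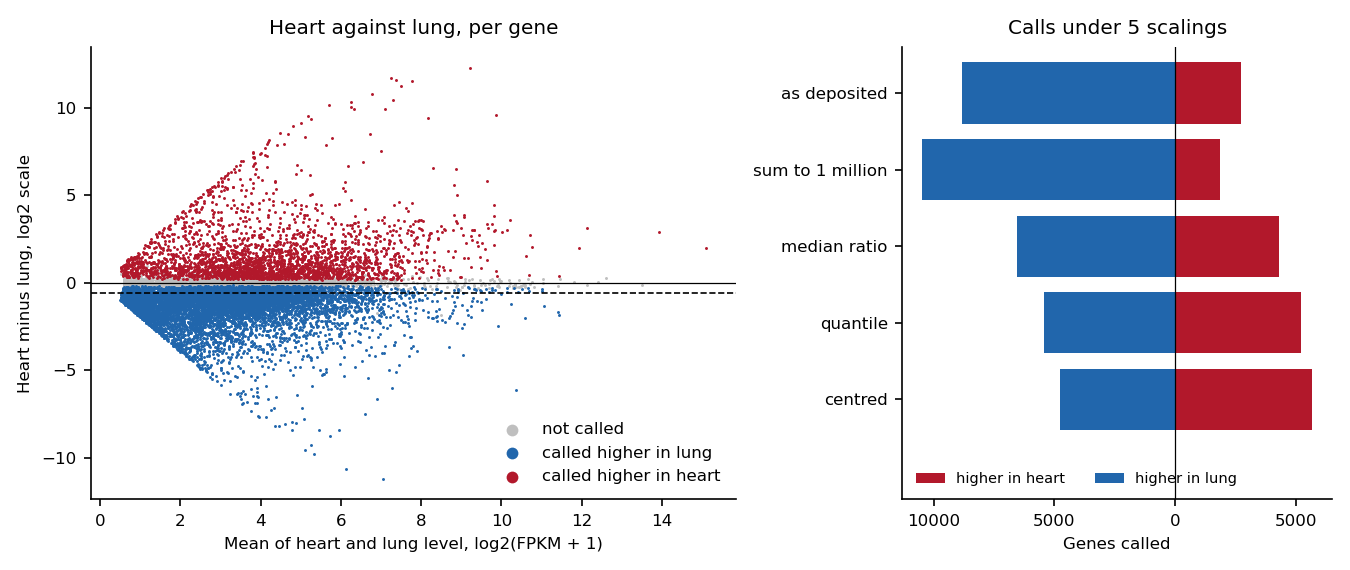
Left, difference between heart and lung of each of 13843 genes (log2 scale, heart minus lung) against the mean of both levels in log2(FPKM + 1), coloured by the limma call, with the median of -0.61 dashed. Right, number of genes called higher in lung (bars to the left) and higher in heart (bars to the right) under 5 scalings of the same libraries; the bars run from 1849 heart and 10484 lung genes at a common sum to 5686 and 4777 after centring.

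Abundant genes leaned towards heart more than rare ones did. The classes were set by the average of the heart and lung means, the same values that were compared. A gene could thus enter a top class through 1 organ alone, and FPKM sums were larger in heart. The part of this choice in the lean was not tested. As deposited, heart was higher for 12.1% of genes with a mean FPKM of 0.5 to 1, 12.1% from 1 to 10, 25.7% from 10 to 100, 44.4% from 100 to 1000 and 45.3% at 1000 and above. Lung was higher for 66.3%, 71.0%, 58.7%, 42.2% and 22.1% of the same classes. After centring, heart was higher for 340 of 926, 2119 of 6420, 2691 of 5628, 461 of 774 and 75 of 95 genes of these classes, so that its share was lowest from 1 to 10 FPKM and still highest at 1000 and above. The median difference crossed 0, from -0.75 in the class from 1 to 10 FPKM to 0.17 at 1000 and above (95 genes). The largest differences also belonged to heart, with 114 genes at 5 or more on the log2 scale against 84 in lung, although lung had more genes at 3 or more. Spread between replicates was larger in lung, with a median SD within groups of 0.26 on the log2 scale against 0.21 in heart and the larger SD in lung for 62.5% of genes.

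Genes far higher in heart were mostly expressed in skeletal muscle too, at a higher median level than the genes tested as a whole. Of the 345 genes higher in heart by 3 or more on the log2 scale, 291 (84.3%) had a mean FPKM above 1 in muscle, where their median was 49.4 FPKM, against 97.4 in heart and 1.77 in lung. Of all 13843 genes tested, 10625 (76.8%) passed that level in muscle, with a median of 4.72 FPKM, so that the share of the heart genes was close to the background while their median was higher. Of the 569 genes higher in lung by as much, 255 (44.8%) passed that level in muscle. The median of these lung genes was 0.793 FPKM in muscle, 0.956 in heart and 33.2 in lung. Genes listed in only 1 of the organs were rarer in heart. Of all 22131 genes, just 29 were above 1 FPKM in all 9 heart libraries and below 0.1 in all 9 lung libraries, with a median of 20.5 FPKM. The reverse pattern was found for 164 genes, with a median of 4.63 FPKM. Muscle had a mean above 1 FPKM for 20 of these 29 heart genes and for 5 of these 164 lung genes. With above 0.5 FPKM in 1 organ and 0 in all libraries of the other as the limits, the counts were 14 in heart and 95 in lung. Relative depth was lower in heart in all 9 pairs, and its part in these counts was not tested.

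By rule, the 2 genes with the largest difference in each direction were followed among 6218 genes with no overlap and with calls of 1 sign at every altitude. The suffix of GOAT_ENSBTAP00000024444-D2 was taken to mark a further copy of a gene model, which no source used here states. If so, reads may have been shared with the other copy. This gene ranged from 24817 to 42452 FPKM in heart (median 33617) and from 0 to 21.2 in lung (median 12.2). The difference was 12.28 on the log2 scale (SE 0.40, limma adjusted p = 3.71e-15). Skeletal muscle was also high for this gene, at 1655 to 16486 FPKM. GOAT_ENSBTAP00000008425 lay between 6254 and 10630 FPKM in heart (median 7638) and between 0.164 and 5.51 in lung (median 1.71), a difference of 11.66 (SE 0.20, limma adjusted p = 4.28e-19). Muscle, at 2.95 to 15.5 FPKM, resembled lung for this gene, so only the former gene was abundant in both striated muscles.

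In the other direction, GOAT_ENSP00000316152 ranged from 4823 to 8353 FPKM in lung (median 5702) and from 0 to 3.52 in heart (median 2.08). Its difference was -11.19 on the log2 scale (SE 0.23, limma adjusted p = 6.6e-18). GOAT_ENSP00000397082 ranged from 1562 to 4854 FPKM in lung (median 2577) and from 0 to 1.83 in heart (median 0.601), with a difference of -10.62 (SE 0.21, limma adjusted p = 2.45e-18). In skeletal muscle both lung genes stayed low, the former at 0.0666 to 18.1 FPKM and the latter at 0.0425 to 6.29 FPKM. For all 4 genes the heart and lung libraries were orders of magnitude apart.

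The difference between heart and lung was largely the same at the 3 altitudes. Tissue accounted for 80.3% of the sum of squares of the log2 values over the 13843 genes, altitude for 6.72%, the combination of tissue and altitude for 2.41%, the pair number within altitude for 6.77% and the residual for 3.76%. Pearson's r over genes averaged 0.978 between heart libraries of 1 altitude and 0.964 between altitudes. In lung it averaged 0.958 and 0.939. Heart and lung libraries with the same number and altitude averaged 0.687, and all other heart and lung pairs 0.671. Pairs share libraries and genes are not independent, so these are descriptions. In 9203 genes (66.5%) the difference between heart and lung was larger than the range over the altitude means in both organs.

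Tested within each altitude in a single fit of the 6 groups, limma called 10141 genes at 600 m (73.3% of those tested), 9362 at 2000 m (67.6%) and 9926 at 3000 m (71.7%). Higher in heart were 2090, 2293 and 2477 of them. After centring each library on its median gene, heart was higher for 4944, 4342 and 4688 genes and lung for 3646, 3771 and 3822, so that the majority passed from lung to heart at all 3 altitudes. With median-ratio scaling the counts for heart and lung were 3594 and 5466, 3523 and 4990, and 3656 and 5449, and with quantile normalization 4198 and 4305, 4154 and 4294, and 4223 and 4455. At all 3 altitudes 7971 genes (57.6%) were called with 1 sign, 1787 higher in heart and 6184 higher in lung, or 2834 and 4051 with median-ratio scaling, 3284 and 3326 with quantile normalization and 3639 and 2712 after centring. Calls of opposite sign at different altitudes were rare, at 22 genes. The 3 altitudes share no library, and the differences at 600 m and 2000 m correlated over genes at r = 0.948, those at 600 m and 3000 m at 0.954 and those at 2000 m and 3000 m at 0.962. The sign was the same at all 3 altitudes for 12050 genes (87.0%).

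**Figure D3:**
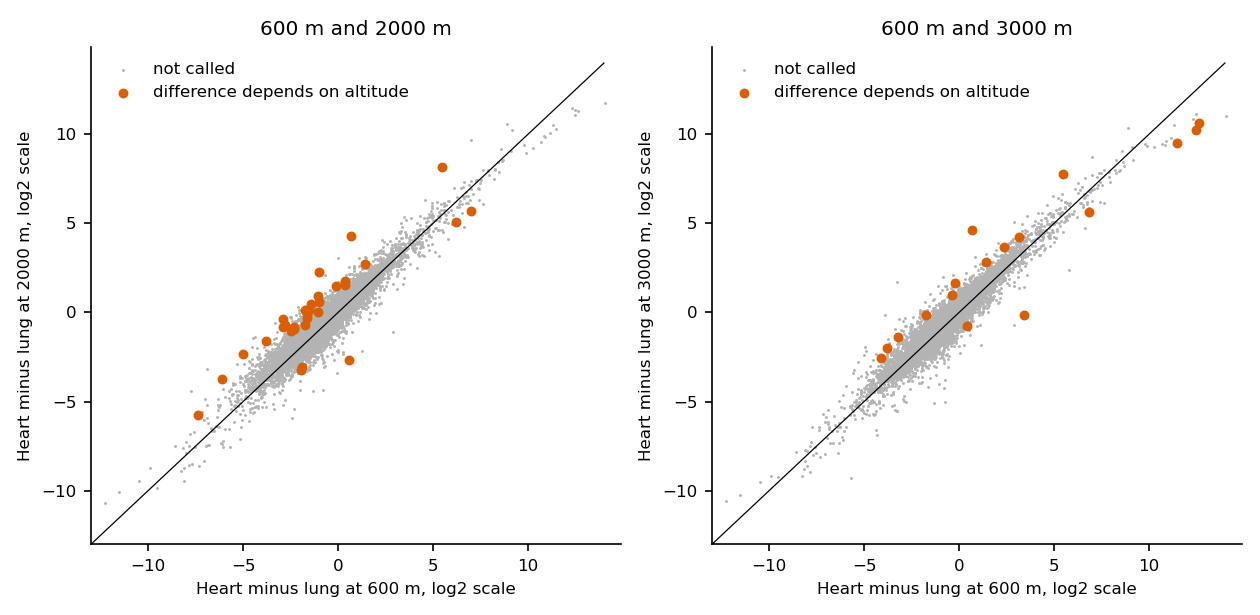
Difference between heart and lung (log2 scale, heart minus lung) of each gene at 2000 m (left) and 3000 m (right) against the difference at 600 m, with the line of equality. Orange points are the 31 and 17 genes whose difference changed between those altitudes in the limma fit, and grey points are the remaining genes. Over all genes r was 0.948 (left) and 0.954 (right).

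A change of the difference between heart and lung with altitude was called for few genes. The moderated F test of limma over the altitudes called 20 genes (0.144% of those tested). A rise or fall here is that of the signed value, heart minus lung, so a rise can also be a smaller excess of lung. Both kinds were called between 600 m and 2000 m. GOAT_ENSBTAP00000008819 rose from 5.49 to 8.15, and GOAT_ENSBTAP00000004048 from -3.79 to -1.61. Between 600 m and 2000 m the difference changed for 31 genes (0.224%), rising for 26 and falling for 5. With the pair as replicate block, 158 genes were called, 138 of them with a rise. Between 600 m and 3000 m the difference changed for 17 genes (0.123%), rising for 11 and falling for 6. Between 2000 m and 3000 m limma called 0 genes (0% of those tested), with 1090 at an unadjusted p under 0.05 (1663 and again 0 calls with the replicate block). An unadjusted p under 0.05 was reached by 2026 genes in the F test. For 600 m the counts were 2151 against 2000 m and 1744 against 3000 m. With the replicate block these 3 counts were 3003, 2983 and 2468. All these counts, also those of 2000 m against 3000 m, were larger than a share of 0.05 of the genes tested. That share would be reached on average if no difference changed. Genes are not independent, so this is a description. With 3 libraries in each group, genes that were not called may still change with altitude. Of the 17 genes of 600 m against 3000 m, 13 did not move in the same direction in heart and lung. These include GOAT_ENSBTAP00000027393, with a change of 0 in heart, and GOAT_ENSP00000366342, with a change of 0 in lung. Of the 17 genes, 7 changed more in heart than in lung. In 4 of the 17 the sign of the difference itself was not the same at both altitudes. These counts rested on single libraries. The count of 17 became 172 without lung 600 m replicate 1, 40 without heart 600 m replicate 1, 36 without lung 3000 m replicate 2 and 34 without lung 3000 m replicate 1. It became 2 without heart 600 m replicate 3, 3 without heart 600 m replicate 2, 4 without lung 600 m replicate 2, and 6 without heart 3000 m replicate 1, heart 3000 m replicate 3 or lung 600 m replicate 3. The 20 genes of the F test likewise became 165 without lung 600 m replicate 1 and 2 without heart 600 m replicate 2 or heart 2000 m replicate 1. The 31 genes of 600 m against 2000 m became 230 without lung 600 m replicate 1 and 3 without heart 2000 m replicate 1.

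The direction of these changes followed the scaling as well. Between 600 m and 3000 m, heart minus lung rose for 7 genes and fell for 13 with either median-ratio scaling or quantile normalization. At a common sum it rose for 3 and fell for 11, and after centring it rose for 4 and fell for 17. Between 600 m and 2000 m it rose for 16 and fell for 9 with median-ratio scaling, and rose for 6 and fell for 4 with quantile normalization. At a common sum it rose for 14 and fell for 2, and after centring it rose for 5 and fell for 14.

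Among the 17 genes, 2 with the largest change in each direction were followed by rule. GOAT_ENSBTAP00000022302 measured 0.945, 0.872 and 1.29 FPKM in heart at 600 m, 23.3, 32.6 and 10.3 at 2000 m and 54.3, 11.8 and 30.9 at 3000 m. Lung stayed between 0 and 0.553 FPKM in all 9 libraries. The heart libraries of 600 m thus lay below all those of higher altitude, and the difference between heart and lung rose by 3.95 on the log2 scale from 600 m to 3000 m (SE 0.58, limma adjusted p = 0.0182). Leaving out 4 of the 18 libraries in turn (heart 600 m replicates 2 and 3, heart 3000 m replicate 3 and lung 600 m replicate 2) raised the adjusted p of GOAT_ENSBTAP00000022302 above 0.05, to at most 0.056.

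GOAT_ENSBTAP00000008819 measured 46.4, 35.7 and 51.6 FPKM in heart at 600 m, 269.5, 350.1 and 238.4 at 2000 m and 273.1, 267.0 and 203.3 at 3000 m. It was listed at 0 in 8 of 9 lung libraries and at 0.416 FPKM in lung 3000 m replicate 2. In muscle it reached at most 0.708 FPKM, so it was abundant in heart only among the organs sampled. The rise from 600 m to 3000 m was 2.29 on the log2 scale (SE 0.26, limma adjusted p = 0.00107), and it was called without any 1 of the 18 libraries. With a pseudocount of 0.1 instead of 1 the rise of GOAT_ENSBTAP00000008819 was 1.69 (limma adjusted p = 0.299).

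GOAT_ENSBTAP00000048663 went the other way, with 6.37, 17.9 and 12.1 FPKM in heart at 600 m, 2.04, 1.502 and 4.42 at 2000 m and 0.618, 0.261 and 0 at 3000 m. The heart libraries of the 3 altitudes did not overlap. Lung held between 0 and 1.21 FPKM and muscle between 1.52 and 84.0 FPKM. The difference between heart and lung fell by 3.55 (SE 0.50, limma adjusted p = 0.0134), from 3.41 at 600 m to -0.14 at 3000 m. With a pseudocount of 0.1 the fall of GOAT_ENSBTAP00000048663 was larger and less certain, with a change of -5.90 (SE 1.26, limma adjusted p = 0.109), and without heart 600 m replicate 3 the adjusted p was 0.05004.

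For GOAT_ENSP00000232975 the change lay in lung. Heart measured 10220, 8042 and 8034 FPKM at 600 m, 7017, 7954 and 8874 at 2000 m and 7285, 9263 and 7010 at 3000 m. Lung held only 0.932, 0.296 and 0.462 FPKM at 600 m, 2.66, 4.02 and 1.72 at 2000 m and 5.42, 3.74 and 8.07 at 3000 m. The lung libraries of 600 m thus lay below all others, at levels far under those of heart. The difference fell by 2.24 (SE 0.35, limma adjusted p = 0.0204), and with the pair as replicate block the adjusted p of GOAT_ENSP00000232975 was 0.0539. Leaving out 6 of the 18 libraries in turn (heart 600 m replicates 2 and 3, heart 3000 m replicates 1 and 3, lung 600 m replicates 2 and 3) raised its adjusted p above 0.05, to at most 0.0796.

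**Figure D4:**
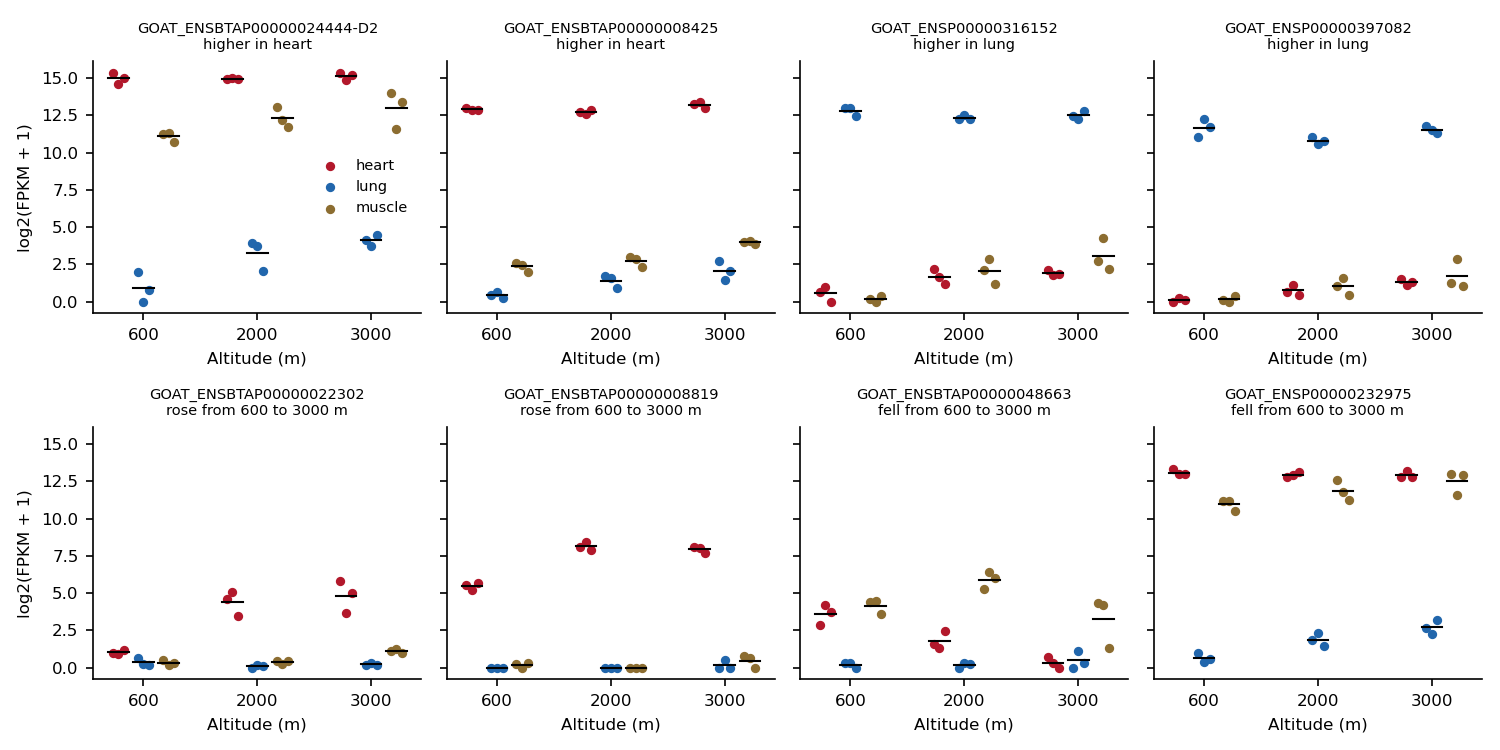
Level in log2(FPKM + 1) of 8 genes by altitude in metres, in heart, lung and skeletal muscle. Points are libraries and black bars the mean of 3; the upper row holds the 2 genes highest in heart and the 2 highest in lung relative to the other organ, and the lower row the 2 genes whose difference between heart and lung rose most from 600 m to 3000 m and the 2 whose difference fell most.

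The pattern of GOAT_ENSP00000232975 was shared by other genes with very large differences. For the 25 genes higher in heart by 8 or more on the log2 scale (293 to 34234 FPKM in heart, chosen after their values were seen), the level in each lung library was expressed as a percentage of the mean in heart at the same altitude. The median over the genes was 0.00133%, 0.0106% and 0.0119% in the 3 lung libraries of 600 m. It was 0.0244% to 0.0581% at 2000 m and 0.0353% to 0.0838% at 3000 m, so that the 600 m libraries lay below all 6 others. For the 13 genes higher in lung by as much, the median in heart libraries was 0% to 0.00972% of lung at 600 m, 0.0213% to 0.0675% at 2000 m and 0.0413% to 0.0691% at 3000 m, again without overlap between 600 m and the rest. The same 13 lung genes were in muscle at 0.000904% and 0.00409% of lung at 600 m (replicates 1 and 2 averaged, and replicate 3), at 0.0229% to 0.0827% at 2000 m and at 0.046% to 0.348% at 3000 m. A trace of the genes of another organ was thus lowest in the 600 m libraries of all 3 tissues. Of the 25 heart genes, 20 had a smaller difference at 3000 m than at 600 m (80%, against 56.2% of all genes tested), and 3 of them were among the 17 genes called between 600 m and 3000 m. Of the 13 lung genes, 6 had a smaller difference at 3000 m. The source of the trace, and its part in the 3 calls, was not tested.

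**Figure D5:**
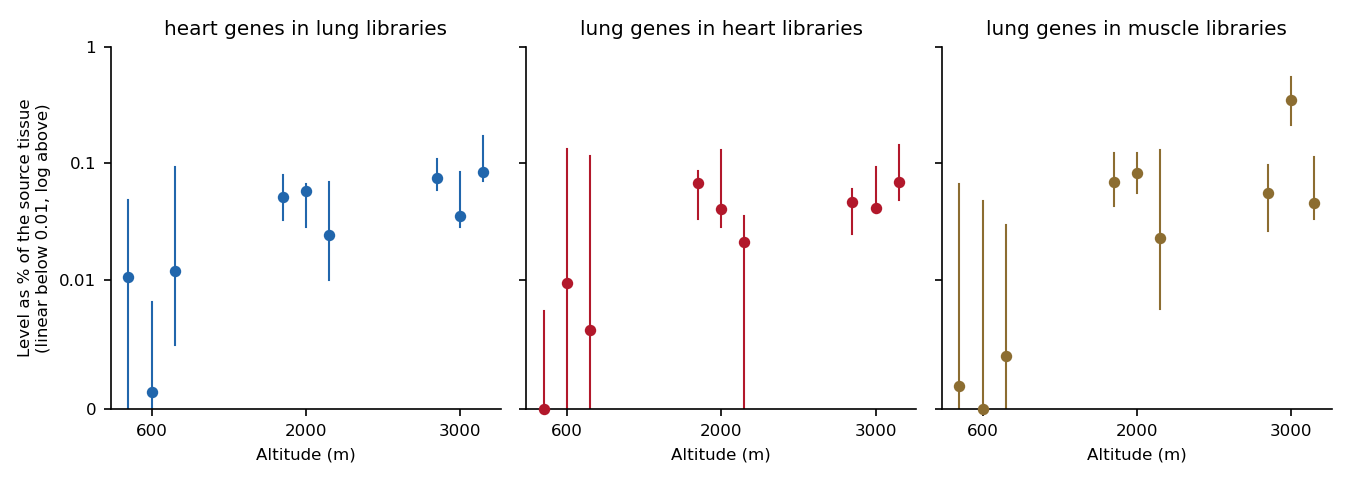
Level of the genes with the largest differences between heart and lung in libraries of another organ, as % of their mean in the organ where they were high at the same altitude, by altitude in metres (vertical axis linear below 0.01% and logarithmic above). Points are the medians over 25 heart genes or 13 lung genes in each library and lines the quartiles; all libraries of 600 m lie at or below 0.0119% and all others at or above 0.0213%.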

How the data were processed

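Heart and lung libraries (18 of 27) were grouped by the labels. Libraries were strand-specific (dUTP, total RNA), and per the submitters' processing notes the reads were handled with TopHat2 2.0.11 and Cufflinks 2.2.1. The authors deposited log2(FPKM + 1) for 22131 genes, and FPKM was recovered from these log2 values. The methods describe the 600 m and 3000 m animals, and the handling of the 2000 m libraries was not given in the sources used here. Absolute depth is unknown. Relative depth was fitted over 143 of 153 library pairs, from genes below 0.15 FPKM, with a residual SD of 0.0389 on the log2 scale. Fold differences on this scale understate those of low genes.

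Genes with a mean FPKM above 0.5 were tested with limma 3.58.1 (R 4.3.3, eBayes with a mean-variance trend, two-sided, Benjamini-Hochberg, threshold 0.05), with tissue and altitude as terms or with 6 groups for contrasts within and between altitudes. The study used Cuffdiff, which needs read files, so limma took its place. The fits were tested on simulated data. Breadth and concentration were compared with exact permutation tests in Python 3.11.15 with NumPy 2.4.6 and pandas 2.3.3, and figures were drawn with matplotlib 3.10.9. Labels do not state that equal numbers mark the same goat. Deviations from the group means of heart and lung libraries with the same number and altitude correlated at 0.147 to 0.448 in all 9 pairs (other numbers -0.378 to 0.136), and this was taken as pairing. Titles number the libraries as separate goats, and nothing else tells biological from technical replicates, so p-values measure the spread between these libraries. Muscle replicates 1 and 2 at 600 m were nearly the same (robust SD of the log2 ratio 0.0849, against 0.193 to 0.471 for other replicate pairs) and were averaged as 1 sample in muscle means and ranges, but plotted singly.

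Named genes were, by rule, the 2 with the largest difference in each direction among genes called with no overlap between organs and with 1 sign at every altitude, and the 2 with the largest change in each direction among those called between 600 m and 3000 m. None of the IDs matched the gene table used here (assembly ARS1.2), so gene lists were not tested. The comparison, lists and tests were chosen with earlier results of these data known. Alternatives were the replicate block, a pseudocount of 0.1, other filters and scalings, no trend, and leaving out each library. A common sum, centring, the trace genes and the tests of altitude over pairs were added after seeing the data.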

Additional observations from a re-analysis of the deposited data

Results flagged for a closer look

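The share of FPKM in the 10 most abundant genes was 22.6% in lung 3000 m replicate 3, far from the 10.3% to 13.5% of the other 8 lung libraries. In lung, 3 of the named genes had 1 library apart from the rest, all at low levels. GOAT_ENSBTAP00000022302 was at 0.553 FPKM in lung 600 m replicate 1 (others 0 to 0.235), GOAT_ENSBTAP00000008819 at 0.416 FPKM in lung 3000 m replicate 2 (others at 0) and GOAT_ENSBTAP00000048663 at 1.21 FPKM in the same library (others 0 to 0.261). In 22 groups of 9 libraries the gap of an extreme value was compared with the range (Dixon ratio). The limit is one that about 1 in 20 groups of normally spread values would pass by chance. FPKM near 0, pooled over altitudes, need not keep that rate. For GOAT_ENSBTAP00000008819, with all other lung libraries at 0, any value above 0 would be set apart.

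The difference between heart and lung varied with altitude for 20 genes by the F test of limma, for 31 genes between 600 m and 2000 m and for 17 genes between 600 m and 3000 m. Among the latter, the difference rose by 3.95 on the log2 scale for GOAT_ENSBTAP00000022302 and by 2.29 for GOAT_ENSBTAP00000008819, and changed by -3.55 for GOAT_ENSBTAP00000048663 and by -2.24 for GOAT_ENSP00000232975. The gap in breadth between heart and lung varied with altitude among genes above 0 FPKM (exact permutation test over 9 pairs, p = 0.00714), above 0.1 FPKM (exact p = 0.025) and above 100 FPKM (exact p = 0.00357), the last without passing after median-ratio scaling (exact p = 0.0679). Relative depth was lower in heart in all 9 pairs, and the part of depth in these changes was not tested.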

How the results depend on the processing

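As deposited, 2725 genes were higher in heart and 8820 in lung. Heart counts moved to 4311 with median-ratio scaling, 5203 with quantile normalization and 5686 after centring, and lung counts to 5438 with quantile normalization and 4777 after centring. The 20 genes of the F test became 38 without a filter, 13 with the filter of the study (FPKM above 0.5 in more than 80% of libraries), 9 with median-ratio scaling and 10 at a common sum. The 31 genes of 2000 m minus 600 m became 158 with the replicate block, 19 with the filter of the study, 10 with quantile normalization, 16 at a common sum and 19 after centring. The 17 genes of 3000 m minus 600 m became 10 with the filter of the study, and the 0 genes of 3000 m minus 2000 m became 3 without a filter. The cause of these moves was not tested. Apart from the 158 genes and the call of GOAT_ENSP00000232975 (adjusted p = 0.0539), the replicate block ended no call of a named gene or organ measure and moved no other count of called genes by over 1.5 times.

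Leaving out 1 library at a time gave 2667 to 2765 genes higher in heart, 8659 to 8898 higher in lung, 9514 to 10207 called at 600 m, 8484 to 9488 at 2000 m, 9140 to 10045 at 3000 m and 7379 to 8114 at every altitude. The counts for change with altitude ranged from 2 to 165 (F test), 3 to 230 (2000 m minus 600 m), 2 to 172 (3000 m minus 600 m) and 0 to 3 (3000 m minus 2000 m). By library in the order of replicates 1 to 3, the F test gave 32, 2 and 3 without heart 600 m, 2, 9 and 7 without heart 2000 m, 4, 16 and 10 without heart 3000 m, 165, 3 and 4 without lung 600 m, 22, 6 and 7 without lung 2000 m, and 22, 36 and 13 without lung 3000 m. In the same order, 2000 m minus 600 m gave 49, 5 and 10, then 3, 6 and 11, then 10, 29 and 13, then 230, 5 and 31, then 20, 9 and 8, and then 27, 41 and 45. The gap in breadth stayed between -7.33 and -6.83 points, that in the top 10 share between 13.8 and 15.8 points and that in the genes needed for 50% of the FPKM between -222 and -192. The named genes kept their sign under every setting in which they were tested. With the filter of the study, GOAT_ENSP00000397082, GOAT_ENSBTAP00000022302, GOAT_ENSBTAP00000008819 and GOAT_ENSBTAP00000048663 did not pass and were not tested.

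No read counts were used, so no counting interval is given and the precision of low FPKM values is unknown.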
